A study of Anopheles gambiae with 16 samples.

Results

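Among the 16884 mosquito probe sets of an Affymetrix array carrying Anopheles gambiae and Plasmodium sequences, 166 (0.983%) were strongly brighter in adult female heads than in both other tissues of the study. They were chosen by their measured values on 12 arrays labelled after 2 rounds of RNA amplification, 4 each from heads, hemocytes and carcasses. The mean of log2(intensity + 16) over the head arrays had to lie at least 2 above both the hemocyte mean and the carcass mean, and the lowest head array had to lie above the highest of the 8 other arrays. All values that set heads against hemocytes or against two-round carcasses are therefore given as a description, with no test. The mean condition alone held for 177 probe sets, and 11 of these failed the condition on overlap. No probe set could be paired with a gene: of the 166 IDs, 0 were found in a table of 15165 genes of the species. Members are called by their array IDs, and no marker of brain, eye, antenna or any other tissue could be looked up to check the label of the samples.

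The head groups most of a mosquito's sense organs: the compound eyes, the antennae and maxillary palps that carry its olfactory neurons, and the mouthparts with their taste hairs. It also holds the brain, endocrine tissue, the feeding pumps with their muscles, and head fat body under a cuticle of its own. Hemocytes are the circulating blood cells of insects, which engulf microbes and take part in clotting and melanization. The carcass here is the body left once hemolymph was drawn and the head taken off, with thorax and abdomen and their nerve cord, flight muscle, fat body, gut and ovaries. A transcript restricted to neurons would thus still have a source in the carcass, in thoracic and abdominal ganglia.

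The females belonged to the G3 strain and were 1 to 2 days past eclosion; the series design calls them naive. Pools held 40 females for heads and 20 for carcasses. Heads, hemocytes and one set of carcasses were labelled from 80 ng of total RNA in 2 rounds. A second set of 4 carcass arrays was labelled from 1000 ng in 1 round. It did not enter the choice of members. Heads and carcasses were extracted with Trizol, whereas hemocytes went directly into the lysis buffer of a column kit, so for hemocytes tissue and extraction cannot be told apart. The hemocyte labels give a pool of 1000 females in one field and 500 in another, and their collection note speaks of infected females. One field of head replicate 4, its source name, describes a pool of 20 carcasses, and its remaining labels describe heads. Across the mosquito probe sets its r was 0.972 to the average of the remaining heads and 0.887 to that of two-round carcasses. The array stayed with the heads, and 157 of the 166 members also met the rule without it. The labels call all arrays biological replicates. These are whole tissues, so fewer cells of a type and less RNA per cell cannot be told apart.

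The median intensity of the mosquito probe sets lay between 19.07 and 27.0 on the 16 arrays, arrays of one group correlated at 0.930 to 0.976, and 10050 to 11888 probe sets per array exceeded background. Background was the 95th percentile of the Plasmodium probe sets of each array, 8.83 to 15.28 intensity units. Two-round arrays showed a steep gradient along control transcripts. Gapdh, a glycolytic enzyme, had an intensity at its 3′ end over that at its 5′ end of 37.5 to 102 on head arrays, 36.4 to 59.5 on hemocyte arrays, 27.3 to 41.2 on two-round carcass arrays and 1.41 to 1.93 on one-round carcass arrays. For actin this ratio was 17.5 to 25.6, 11.8 to 14.6, 22.3 to 29.4 and 2.22 to 2.93 in the same order. Nearer the 3′ end the Gapdh 3′ over middle ratio was highest in heads, at 2.70 to 5.64, against 1.47 to 2.22 in hemocytes and 1.31 to 1.57 in two-round carcasses. The actin 3′ over middle ratio did not set heads apart from carcasses, at 3.13 to 4.03 in heads, 2.06 to 2.33 in hemocytes and 3.17 to 3.46 in two-round carcasses. The part of this gradient in the choice of members was not tested.

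The head-enriched probe sets covered a wide range of brightness. Their geometric mean intensity over the head arrays ran from 80.1 to 7801, with a median of 596, and 48 members exceeded 1000. Over hemocyte arrays the same members had a median of 32.3 (1.24 to 746), and over two-round carcass arrays a median of 83.4 (3.18 to 1136). All 166 were above background on all 4 head arrays, as were 50.4% of all mosquito probe sets. Most were not silent elsewhere. Of the members, 101 were also above background on all 4 hemocyte arrays, against 47.8% of all mosquito probe sets. On all 4 two-round carcass arrays 144 were above it, against 48.7%. On all 16 arrays 95 were above it, a count not made over all probe sets. Most of the array was dimmer in heads than any member. Single hemocyte arrays exceeded background in 119 to 134 of the 166 members. They did so in 4250 to 4298 of the 4491 probe sets at least as bright in heads as the dimmest member, a larger share. On single two-round carcass arrays the counts were 153 to 157 of the 166 and 4453 to 4470 of the 4491, again a larger share.

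**Figure D1:**
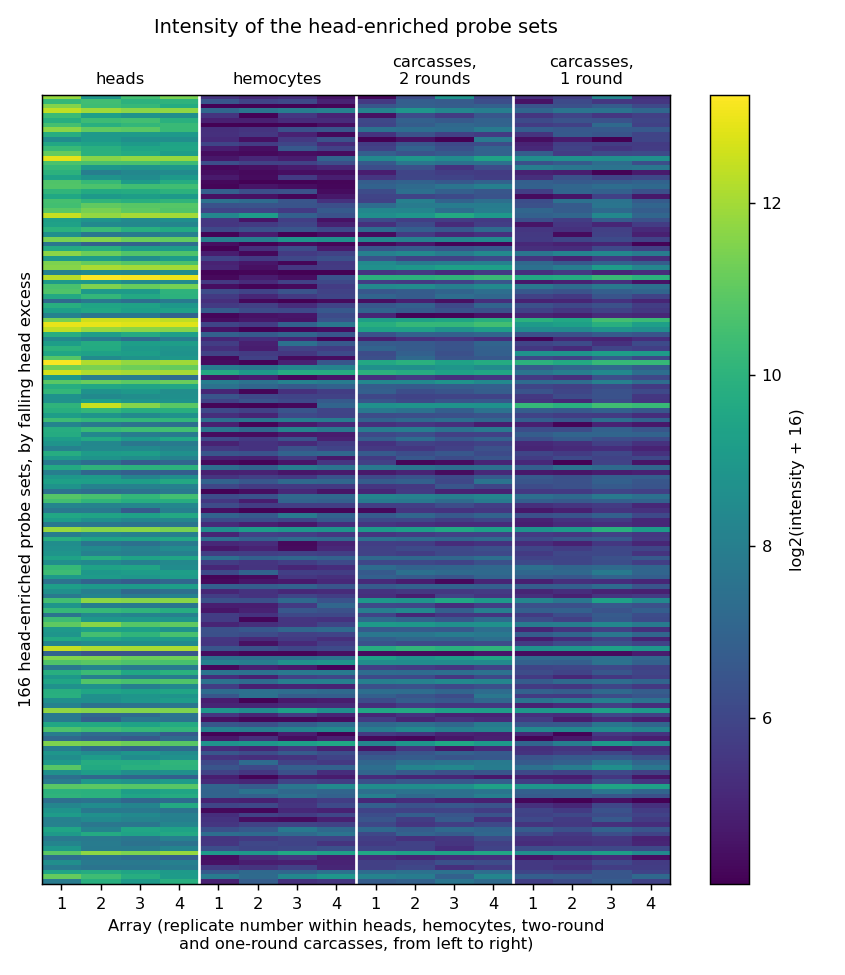
Each of the 166 rows is a head-enriched probe set, ordered by falling head excess, and each column is an array, with colour giving log2(intensity + 16) from low (dark) to high (bright). Heads stand on the left, then hemocytes, two-round carcasses and one-round carcasses, with the replicate number under each column. The head block is bright throughout, the hemocyte block holds the darkest cells, and bright members keep a visible signal in both carcass blocks.

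The margin by which a member exceeded the higher of the other tissues, its head excess, is the head mean minus the higher of the hemocyte and two-round carcass means on the log2 scale. It had a median of 2.39 and quartiles of 2.19 and 2.79. Members past 3 numbered 26, past 3.5 there were 6, and past 4 there was 1. Under the same rule 313 probe sets were strongly enriched in hemocytes, with a median excess of 2.47, and 265 in carcasses, with a median excess of 3.63. An excess of at least 4 was reached by 1 head-enriched probe set, by 18 hemocyte-enriched ones and by 107 carcass-enriched ones. Probe sets below background on all 8 arrays of the other tissues numbered 2 of the 166 in heads (1.20%), 7 of 313 in hemocytes (2.24%) and 58 of 265 in carcasses (21.9%). Within these 3 sets, which the rule itself chose, the head-enriched one thus had the smallest share of members at large margins and of members that were dark elsewhere.

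**Figure D2:**
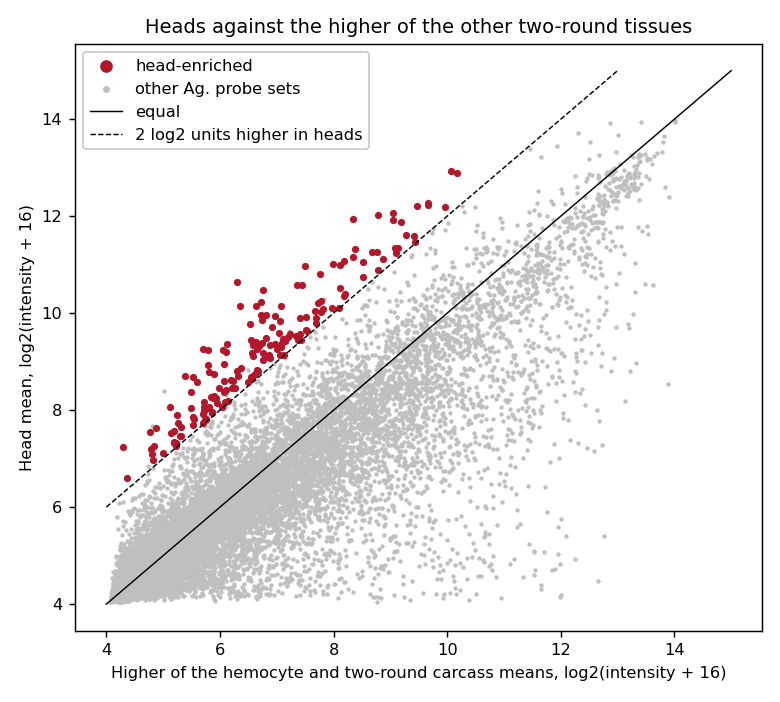
The head mean of every mosquito probe set (vertical axis) is plotted against the higher of its hemocyte and two-round carcass means (horizontal axis), both as log2(intensity + 16). The 166 head-enriched probe sets lie on or above the dashed line at 2 log2 units. Their head means reach up to near 13. None has a geometric mean intensity in heads under 80.1, so the dim part of the plot holds no member. The grey points above the dashed line are among the 11 that failed the condition on overlap.

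The largest head excess, 4.33, belonged to Ag.3R.2620.0_at, which by its ID lies on arm 3R. Its intensity was 3567, 449.9, 1422 and 2631 on the head arrays 1 to 4, against 27.4, 19.1, 22.7 and 7.53 on the hemocyte arrays. On the two-round carcass arrays 1 to 4 it was 3.31, 57.3, 429.8 and 46.2. Heads did not overlap with either tissue, but the margin was thin, since head replicate 2 stood only just above carcass replicate 3. The geometric mean in heads was 90.6 times that in hemocytes and 35.5 times that in two-round carcasses. One-round carcasses gave 23.8, 38.8, 291 and 24.1, so replicate 3 was also the high carcass array there. Across the 4 head arrays this member varied 7.93-fold, the most of all members.

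Ag.2R.85.1_CDS_at came next, with an excess of 3.81 and much tighter head values of 1146, 1392, 989 and 1013. Hemocytes had 76.7, 44.7, 49.6 and 14.6, and two-round carcasses 32.5, 97.5, 87.2 and 60.8. The head mean was 1135 ± 185 (SD, n = 4), and the geometric mean was 28.3 times that of hemocytes and 17.6 times that of carcasses. A further probe set of the same ID number, Ag.2R.85.0_CDS_at, was near background everywhere, at 8.44 ± 5.48 in heads, 6.37 ± 7.28 in hemocytes and 9.91 ± 8.47 in two-round carcasses.

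Ag.2R.554.0_CDS_at (excess 3.71) measured 3002, 1348, 1162 and 828 on the head arrays. All 4 hemocyte arrays were below background, at 1.11, 0.926, 1.17 and 1.94, and two-round carcasses had 75.8, 102, 92.1 and 104. Heads were at least 110-fold brighter than hemocytes, taking background as the floor on each hemocyte array, and 15.2-fold brighter than carcasses. This member therefore separated all 3 tissues, with heads highest and hemocytes below background.

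Ag.2L.46.0_CDS_at (excess 3.60) was among the brighter members, at 5376, 3906, 3238 and 3432 in heads. It stayed well above background in the other tissues, with 124, 184, 235 and 261 in hemocytes and 277, 456, 296 and 239 in two-round carcasses. Heads were 20.2-fold over hemocytes and 12.7-fold over carcasses, and hemocyte and carcass arrays overlapped.

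The 2 brightest members in heads were Ag.2L.658.0_CDS_a_at and Ag.2R.429.0_CDS_at. The first measured 4933, 9853, 9302 and 8191 in heads, 3.59, 11.1, 5.76 and 67.2 in hemocytes, and 958, 1000, 1058 and 1234 in two-round carcasses. It was above background on a single hemocyte array, replicate 4, and on every carcass array. The second measured 8031, 7852, 7232 and 7199 in heads, 47.7, 35.9, 107 and 191 in hemocytes, and 906, 1145, 1144 and 1404 in two-round carcasses. In two-round carcasses both still exceeded the median level of all members in heads, and their head enrichment over carcasses was 7.38-fold and 6.66-fold.

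**Figure D3:**
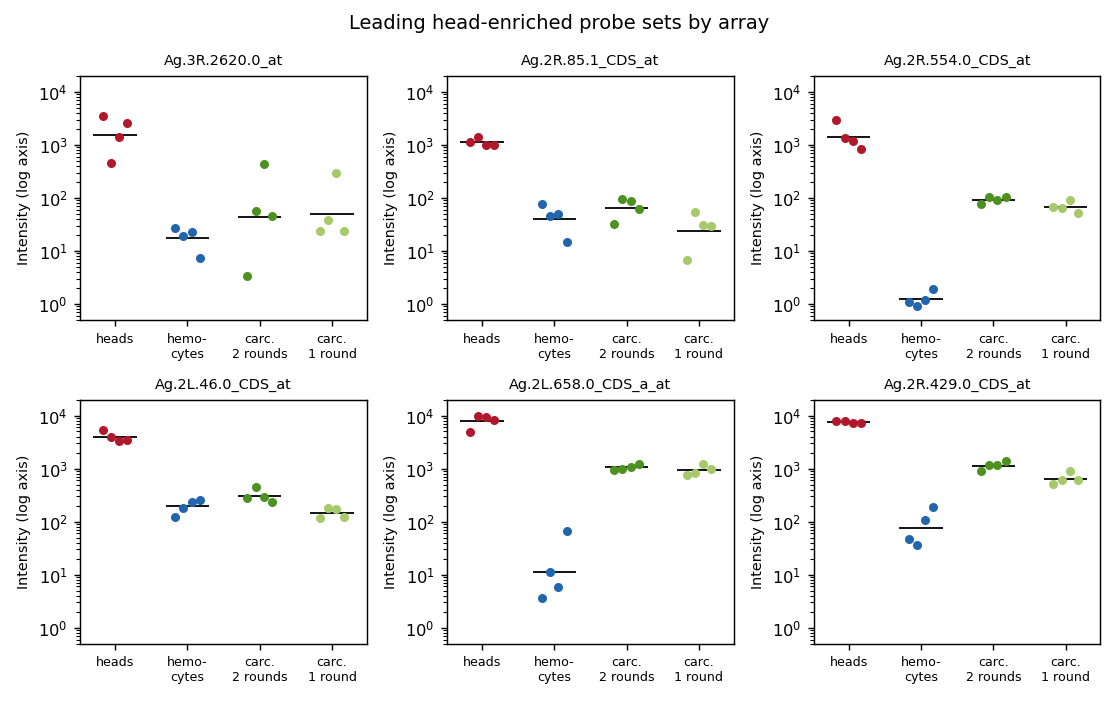
Intensity on a log axis of the 4 members with the largest head excess and the 2 brightest members, 1 panel each. Points are single arrays in order of replicate number for heads, hemocytes, two-round carcasses and one-round carcasses from left to right, and the bar is the geometric mean of a group. Head points lie above all others in each panel; the hemocyte points of Ag.2R.554.0_CDS_at sit between 0.926 and 1.94, and those of Ag.2L.658.0_CDS_a_at spread from 3.59 to 67.2.

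At the lower end, 2 members were below background on all 8 hemocyte and two-round carcass arrays. Ag.3R.1652.1_CDS_a_at measured 193, 105, 108 and 146 in heads, at least 10.4-fold over hemocytes and at least 9.53-fold over carcasses. Ag.X.753.0_CDS_at measured 112, 69.9, 68.2 and 77.0 in heads, at least 6.25-fold and at least 5.70-fold over the same tissues. Both were dim in heads too, so that their bounds are low. One-round carcasses had 18.7, 14.02, 16.3 and 1.90 for Ag.3R.1652.1_CDS_a_at, above background on 3 of the 4 arrays. These 2 members were picked out after their values were seen.

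Just inside the threshold, Ag.2L.1721.0_CDS_at had an excess of 2.01, with 221, 898, 504 and 886 in heads against 91.5, 106, 182 and 135 in two-round carcasses. Ag.2L.2861.0_s_at, also at 2.01, had 2175, 1360, 872 and 533 in heads against 224, 137, 306 and 461 in hemocytes. Just outside lay Ag.2L.1773.0_CDS_a_at (1.999) and Ag.3L.2355.0_at (1.998), whose head arrays did not overlap with the others. The members nearest the line are thus not separated from their neighbours by any gap.

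In 9 of the 11 probe sets that met the mean condition but overlapped, head replicate 1 was the lowest head array. Ag.3R.118.0_CDS_s_at had 3.23 on that array against 3368, 5736 and 6715 on the other head arrays, and Ag.2R.2207.0_CDS_at had 10.9 against 267, 230 and 933. In the 2 others, Ag.2L.941.0_UTR_at and Ag.2L.941.0_CDS_at, the overlap came from two-round carcass replicate 4, at 187 and 70.6, where the other 3 carcass arrays read 1.09 to 2.55 and 1.62 to 2.22. The one-round array of carcass replicate 4 was also the highest of its group for both, at 60.3 and 41.8. These probe sets were singled out after their values were seen.

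Head replicate 1 stood out among the members as well, in the other direction. It was the highest head array for 97 of the 166 members (58.4%), against 31.4% of all mosquito probe sets and 36.6% of the 4491 probe sets that were at least as bright in heads as the dimmest member. Those 4491 were on the whole dimmer than the members, with a median of 213 to 266 on the head arrays. The median member intensity was 702 on head replicate 1 and 574, 524 and 537 on replicates 2 to 4. It exceeded the next head array by at least 1 log2 unit in 13 members (7.83%), against 1.26% of all probe sets and 2.40% of those 4491. Head replicate 4 did so in 1 member, Ag.2R.33.1_at (named as the only one), with 286, 355, 281 and 798. Hemocyte-enriched probe sets also had head replicate 1 as their highest head array in 56.2% of cases and carcass-enriched ones in 27.2%, so the tilt was not confined to head-enriched ones. Head replicate 1 led by at least 1 log2 unit in 16.6% of hemocyte-enriched probe sets, more than among the members, and in 1.13% of carcass-enriched ones. The labels give no difference between head replicate 1 and the other pools, and the source of the tilt was not tested. Without that array 171 probe sets met the rule, and 147 of the 166 were among them.

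The spread within heads had a median near that of the whole array. This is not a like comparison, since most of the array was dimmer and the rule dropped probe sets whose head arrays overlapped with the others. The median SD over the head arrays was 0.32 on the log2 scale for members and 0.28 for all probe sets. The ratio of the highest to the lowest head array had a median of 1.65. It ranged from 1.09, in Ag.2R.472.0_UTR_a_at (named for this value) at 1914, 1971, 1812 and 1873, to the 7.93 of Ag.3R.2620.0_at, and it reached 2 in 50 members and 4 in 6.

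Hemocytes and two-round carcasses were then set side by side. The rule caps both below heads by the same margin and so used the values of both, and what follows is a description of the chosen members, not a test of them. Calls in limma used Benjamini-Hochberg adjustment over all mosquito probe sets. They needed an adjusted p under 0.05 and at least 2-fold on the log2(intensity + 16) scale. Of the members, 62 (37.3%) passed, against a background of 18.9% of all probe sets. All 62 were lower in hemocytes, where the background is 8.17%, and 0 were higher, where it is 10.7%. At an unadjusted p under 0.05, 90 were lower and 2 higher, and with a pseudocount of 64 in place of 16 the calls numbered 34, all lower. The median log2 difference of hemocytes minus carcasses was −0.64 over the members and 0.06 over all probe sets. Of the 4491 probe sets at or above the dimmest member 16.6% were called lower and 22.9% higher, with a median of 0.37. By group means, 27 members were higher in hemocytes and 139 in carcasses. All 4 carcass arrays lay above all 4 hemocyte arrays in 71 members (42.8%), against a background of 12.2%, and the reverse held in 4 (2.41%), against 21.2%.

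**Figure D4:**
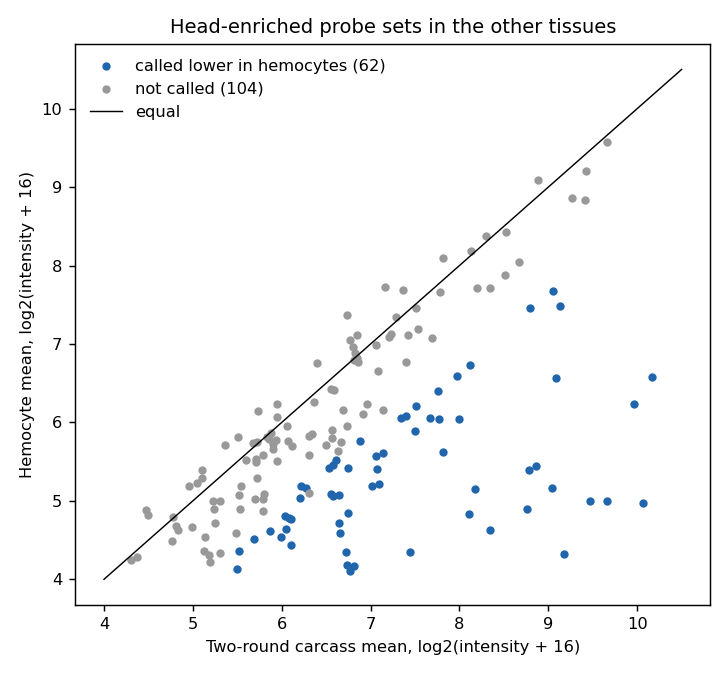
The hemocyte mean of each head-enriched probe set (vertical axis) is plotted against its two-round carcass mean (horizontal axis), both as log2(intensity + 16), with the line of equal values. The 62 members called lower in hemocytes (blue) lie below the line, and the 104 uncalled members (grey) lie on both sides of it; 27 members in all lie above the line. Since the scale ends at 4, members with a carcass mean under 5 could not be called lower.

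The largest difference towards lower values in hemocytes was in Ag.2L.658.0_CDS_a_at, the brightest member in heads, whose arrays are given above. Its mean was 21.9 ± 30.3 in hemocytes and 1063 ± 121 in two-round carcasses (SD, n = 4 each), which is −5.10 ± 0.36 on the log2 scale (SE, limma). Ag.2L.23.0_CDS_s_at followed, with 7.09, 1.33, 3.08 and 5.29 in hemocytes, all below background, and 643, 625, 428 and 587 in two-round carcasses. It was at least 44.0-fold lower in hemocytes (limma log2 difference −4.85 ± 0.18). In heads this probe set measured 5312, 3657, 3228 and 3072, so 3 separate levels were seen, at least 291-fold apart between heads and hemocytes. The suffix _s marks, in the array maker's usage, a probe set shared by several transcripts.

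The 62 members lower in hemocytes were brighter in heads than the remaining 104, with a median head geometric mean of 974 against 430, and their median head excess was 2.52 against 2.35. Because the scale has a floor, members dim in carcasses could not be called lower. The call itself thus favours brighter members, and the gap in brightness is only a description. Of the 62, 11 were below background on all 4 hemocyte arrays and 25 were above it on all 4. The arrays of the 2 tissues did not overlap in 57 of them. By the mark in the ID, 50 of 112 CDS members, 4 of 13 UTR members and 8 of 41 unmarked members were called lower in hemocytes. Among the 4491 probe sets at or above the dimmest member the shares called lower were 16.6% of CDS, 22.1% of UTR and 13.2% of unmarked ones. Passing the adjusted p without the 2-fold minimum, 2 members were higher in hemocytes: Ag.3L.2128.0_at, at 150 ± 19.9 in hemocytes and 94.5 ± 32.4 in two-round carcasses (limma log2 difference 0.63 ± 0.22), and Ag.UNKN.136.1_CDS_a_at, at 198 ± 36.3 and 128 ± 19.1 (0.56 ± 0.18). They are named because they were the only 2. The extraction differed between these tissues as stated, and its part in the difference was not tested.

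Hemocyte replicate 4 was well above the other hemocyte arrays in a few members. It exceeded the next hemocyte array by at least 1 log2 unit in 8 members (4.82%, against 0.51% of all probe sets and 0.89% of the 4491), and hemocyte replicate 2 did so in 3 (1.81%, against 0.73% and 1.65%). Ag.2R.351.1_a_at had 2.36, 1.28, 3.32 and 113 on hemocyte arrays 1 to 4, and Ag.2R.18.0_CDS_at had 5.05, 9.05, 7.23 and 68.2. In heads these probe sets averaged 2956 and 4954. The median member intensity on hemocyte arrays 1 to 4 was 30.2, 27.4, 38.8 and 42.6, and replicate 4 was the highest array for 67 members (40.4%), against 30.1% of all probe sets and 39.7% of the 4491, a share near that of the members. These 2 examples were chosen after their values were seen.

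One-round carcasses gave a look at the same direction on arrays the rule had not used, although the head arrays are those that chose the members and the labelling differs. The carcass side is not independent of the choice either. One-round arrays deviated from their group mean together with the same-numbered two-round arrays (r = 0.398, 0.206, 0.477 and 0.251 for replicates 1 to 4). All 4 head arrays lay above all 4 one-round carcass arrays in 164 of the 166 members, against a background of 23.6% of all probe sets. The log2 difference of heads minus one-round carcasses had a median of 3.03 (0.23 to 5.42), against 0.16 over all probe sets, and heads were the higher by group mean in every member. In limma 164 members were called higher in heads and 0 lower (0 lower also at an unadjusted p under 0.05), beside backgrounds of 13.3% and 6.37%, or 19.7% in either direction. Since the heads were selected as high, nothing is read from that count. The difference was under 2 in 13 members and under 1 in a single one.

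That one was Ag.3R.321.0_CDS_a_at, which measured 704, 623, 568 and 411 in heads and 419, 429, 572 and 518 in one-round carcasses. Those groups overlapped, and their log2 difference was 0.23 ± 0.21 (SE, limma), which was not called. Two-round carcasses, which chose it, had 57.9, 101, 62.2 and 103, and hemocytes 43.1, 35.1, 30.4 and 54.3. For this probe set the head enrichment was therefore seen against one labelling of carcasses and not the other. The second member not called was Ag.2R.351.1_a_at, with 1056, 5821, 3047 and 1899 in heads against 1151, 943, 1387 and 1214 in one-round carcasses (log2 difference 1.06 ± 0.56). At the other end Ag.2L.3532.0_at had 2739, 3031, 2353 and 2106 in heads against 32.8, 46.9, 54.3 and 42.1 in one-round carcasses, a difference of 5.42. Ag.2R.85.1_CDS_at was next, at 4.74, with 6.65, 53.5, 30.6 and 29.7 in one-round carcasses.

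**Figure D5:**
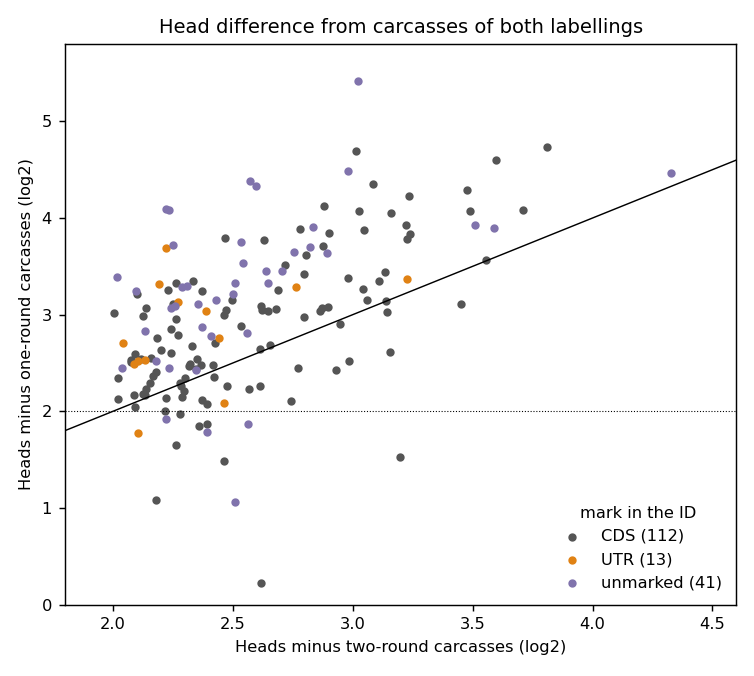
For each head-enriched probe set the log2 difference of heads minus one-round carcasses (vertical axis) is plotted against that of heads minus two-round carcasses (horizontal axis), coloured by the mark in the ID, with the line of equal differences and a dotted line at 2. All points lie at 2 or more on the horizontal axis by the rule; 13 fall below 2 on the vertical axis, the lowest at 0.23, and the highest, an unmarked probe set, reaches 5.42.

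The 2 carcass labellings, which differ in rounds and in starting RNA, were set side by side for the same members. The rule bounds the two-round carcass arrays from above and does not use the one-round ones, so one side was shaped by the choice of members and the values are a description. In limma 26 members were called, against a background of 9.89% of all probe sets. After 2 rounds 23 (13.9%) were higher, against 7.29%, and 3 (1.81%) lower, against 2.61%. Of the 4491 probe sets at or above the dimmest member 22.8% were called higher and 3.25% lower. Median centring of the arrays gave 17 higher and 5 lower members, quantile normalization 15 and 6, and a pseudocount of 64 gave 7 and 3. One-round carcass replicate 3 was the highest of its group for 118 members (71.1%), against 54.1% of all probe sets and 80.2% of the 4491. Over the 4491 its median intensity was 182, against 117, 123 and 120 on replicates 1, 2 and 4. Leaving it out gave 37 calls, 34 higher and 3 lower. The source of its brightness was not tested. The median log2 difference of two-round minus one-round carcasses was 0.41 over the members, 0.12 over all probe sets and 0.54 over those 4491. Carcass arrays with the same replicate number deviated from their group means together, and within these 4 pairs the two-round array was the higher in all 4 for 78 members and in none for 12. These pair counts were not made over all probe sets, so they are not read as a trait of the members. By mark, 11 of 41 unmarked, 10 of 112 CDS and 2 of 13 UTR members were called higher after 2 rounds. Among the 4491 probe sets at or above the dimmest member the shares were 41.2% of unmarked, 15.8% of CDS and 31.0% of UTR ones, so unmarked probe sets also had the largest share there. All 3 members called lower were CDS probe sets.

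Ag.2L.3532.0_at had the largest difference after 2 rounds, at 305, 263, 289 and 341 in two-round carcasses, against the one-round values given above. Its means were 299 ± 32.6 and 44.0 ± 9.02 (SD, n = 4 each), or 2.40 ± 0.19 on the log2 scale (SE, limma). Ag.2L.3261.0_at had 603, 400.0, 517 and 703 in two-round carcasses against 135, 137, 160 and 120 in one-round carcasses (log2 difference 1.87 ± 0.16). Both are unmarked, and their groups did not overlap. In heads Ag.2L.3261.0_at measured 2936, 2828, 2297 and 2388, against 160, 156, 161 and 176 in hemocytes.

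The largest difference towards lower values after 2 rounds was in Ag.3R.321.0_CDS_a_at, at 81.1 ± 24.4 in two-round carcasses and 485 ± 73.6 in one-round carcasses (log2 difference −2.39 ± 0.21), in the direction in which the rule selects. Other probe sets of the same ID number moved the other way. Ag.3R.321.0_UTR_a_at averaged 3230 ± 434 in two-round carcasses and 1768 ± 161 in one-round carcasses, and Ag.3R.321.2_at 1438 ± 173 and 522 ± 57.3. Both were brighter in heads, at 9633 ± 1184 and 4730 ± 960, with a head excess of 1.57 and 1.69, below the threshold. The CDS probe set was a member and its UTR partner was not, and the 2 lay on opposite sides between the labellings. Ag.3R.11.0_CDS_at, with 60.1, 65.4, 26.2 and 57.2 in two-round carcasses against 236, 188, 173 and 188 in one-round carcasses, was the next lower (−1.67 ± 0.29). The third was Ag.X.436.0_CDS_s_at, at 87.2 ± 26.3 and 202 ± 36.3 (−1.10 ± 0.21), named because only 3 members were called lower.

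The 166 members fell into 159 ID clusters, a cluster being the probe sets with the same arm and number in their IDs, and 6 clusters held more than 1 member. Most members, 121, were alone in their cluster on the array. The cluster with most members was Ag.3L.148, with 3. Its UTR probe set Ag.3L.148.0_UTR_a_at was the brightest, at 7531, 3066, 3497 and 3564 in heads, 9.29, 17.8, 11.4 and 115 in hemocytes and 310, 456, 350 and 662 in two-round carcasses. Ag.3L.148.2_CDS_a_at had 1828, 346, 426 and 470 in heads, against 3.44, 41.1, 4.52 and 5.26 in hemocytes and 62.2, 130, 74.5 and 81.8 in two-round carcasses. Ag.3L.148.0_CDS_a_at had 982, 241, 304 and 334 in heads and was below background on all 4 hemocyte arrays, so heads were at least 30.7-fold brighter. In two-round carcasses it had 11.8, 45.1, 36.8 and 34.1. Head replicate 1 was the highest in all 3, by at least 2-fold over the next, while the other head arrays lay close together. Probe sets of one cluster may read the same transcript, and the 3 are not independent.

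A further 39 probe sets shared a cluster with a member without being members. Of these, 27 had a head excess above 0, 21 had one of at least 1, against 2.78% of all non-members, and in 21 the head arrays did not overlap with the others, against 5.70%. Most non-members were dim in heads, and these shares were not taken for non-members of like brightness, so the gaps are not matched for it. Of the 39, 3 were below background on all 4 head arrays. These include Ag.3R.839.0_CDS_a_at, which is also among the 27, with an excess of 0.20. The widest disagreement was in cluster Ag.3R.405. Its member Ag.3R.405.0_CDS_at had 1623, 1348, 1164 and 1083 in heads, against 264, 242, 279 and 326 in hemocytes and 234, 325, 237 and 271 in two-round carcasses. Its partner Ag.3R.405.1_CDS_at had an excess of −4.19, with 218 ± 61.2 in heads, 4332 ± 1437 in hemocytes and 175 ± 51.5 in two-round carcasses. One cluster thus held a probe set enriched in heads and another enriched in hemocytes, picked out here after the values were seen.

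By their IDs 62 members (37.3%) lay on arm 2R, against 26.3% of all mosquito probe sets, 30.7% of the hemocyte-enriched and 27.2% of the carcass-enriched ones. Arm 3R held 32, 2L 31, 3L 22 and X 11 (6.63%, against 8.31%), and 8 (4.82%, against 11.5%) carried UNKN in place of an arm. Arm shares were not taken for probe sets of like brightness in heads, so these differences are not matched for brightness. CDS was the mark of 112 members (67.5%), against 83.3% of all probe sets, UTR of 13 (7.83%, against 4.68%), and 41 (24.7%, against 12.05%) had neither mark. The 4491 probe sets at or above the dimmest member were 67.5% CDS, 12.5% UTR and 20.0% unmarked. Hemocyte-enriched probe sets, by contrast, were 84.3% CDS and 10.2% unmarked, and carcass-enriched ones 81.9% and 12.5%. These shares were not tested. The suffix _s stood on 17 members (10.2%, against 8.14%), and none carried _x, which the array maker uses for probe sets that can bind unrelated transcripts. Only 12 of all mosquito probe sets (0.0711%) carry _x, so its absence here says little.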

How the data were processed

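The authors deposited 1 linear intensity for each probe set on each array, made with GCOS 1.4 per the submitters' processing notes. How probes were summarised, corrected and scaled is not given in the sources used here. No further normalization was applied. The 16884 IDs that begin with Ag. were taken for mosquito probe sets; arm, number, mark (CDS, UTR or none) and suffix were read from the ID. No coordinates or sequences were used here. Members and lists were chosen with earlier results of these data known, and the gene lists drawn up for head, hemocyte and other tissues could not be looked up.

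Values were taken as log2(intensity + 16), so log2 differences understate the change of dim probe sets; folds in the text are ratios of geometric means of intensity, and where a group was below background on all its arrays the fold is a bound with background as its floor. One limma 3.58.1 model of 4 groups over 16 arrays (12 residual degrees of freedom; R 4.3.3) was fitted to all mosquito probe sets, with Benjamini-Hochberg adjustment per comparison. A call needs an adjusted p under 0.05 and a difference of at least 1 log2 unit in either direction. For calls, 2-fold thus refers to log2(intensity + 16) and not to the ratio of geometric means. The procedure was tested on simulated data. Tables were made in Python 3.11.15 with pandas 2.3.3. The number of arrays limits the precision.

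Named are the 4 members with the largest head excess, the 2 brightest in heads, the 2 nearest to each side of the threshold, the 2 largest called rises and falls per comparison, and the cluster with most members; all other probe sets named were chosen after their values were seen. Same-numbered carcass arrays of the 2 labellings deviated together (r = 0.398, 0.206, 0.477 and 0.251 over probe sets), which pairs them by number; between other groups this did not hold for all 4 numbers.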

Additional observations from a re-analysis of the deposited data

Results flagged for a closer look

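Among the 64 groups of 4 arrays of the 16 named members, 5 held an array far from the others by Dixon's test at the 95% level, and chance alone gives about 1 in 20 groups. Ag.3R.2620.0_at read 291 on one-round carcass replicate 3, where the other 3 arrays read 23.8 to 38.8; on two-round carcasses replicate 3 was also the highest, at 429.8. Ag.3R.11.0_CDS_at read 1186 on head replicate 1, where the others read 436 to 489, and 26.2 on two-round carcass replicate 3, where the others read 57.2 to 65.4. Ag.3L.148.0_UTR_a_at read 7531 on head replicate 1, where the others read 3066 to 3564. Ag.3L.148.2_CDS_a_at read 41.1 on hemocyte replicate 2, where the others read 3.44 to 5.26.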

How the results depend on the processing

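The number of head-enriched probe sets depended on the pseudocount and the threshold: 311 met the rule at a pseudocount of 1 and 80 at 64, and 320 at a threshold of 1.5 log2 units and 26 at 3. Of the 166, all were among the 311 and the 320. Median centring gave 151 (150 shared) and quantile normalization 175 (159 shared), and leaving out single arrays gave 162 to 182. Members called between hemocytes and two-round carcasses fell to 34, all lower in hemocytes, at a pseudocount of 64; with no fold minimum 2 were higher. Without single arrays 59 to 67 were called, 59 to 67 lower and 0 to 1 higher. Between two-round and one-round carcasses a pseudocount of 64 left 10 calls, 7 of them higher, median centring gave 5 lower, quantile normalization 15 higher and 6 lower, and no fold minimum gave 52, with 46 higher and 6 lower. Without single arrays 23 to 37 were called, 20 to 34 higher and 3 to 4 lower. The 37 and the 34 came without one-round carcass replicate 3. Heads over one-round carcasses kept 163 to 165 calls without single arrays, 163 to 165 higher and 0 lower. The cause of these shifts was not tested. With the replicate number as a block the counts did not change: 62 for hemocytes over two-round carcasses, 26 for two-round over one-round carcasses and 164 for heads over one-round carcasses. A block on the carcass pairs only, chosen after seeing the data, left 26 for two-round over one-round carcasses. That fit sets heads against the fitted carcass level of replicate 1, not the group mean. Its 163 calls for heads over one-round carcasses are therefore not the same comparison. For the members named as the largest called rises and falls per comparison, 182 of 182 alternative log2 differences kept their direction and call. Leaving out an array of a group outside a comparison cannot change its log2 difference, so part of this count was fixed in advance. The members named for other reasons only were not followed in this way. Dim probe sets limit what can be said: 18 members were below background on all hemocyte arrays.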
